A study of Sus scrofa and Bos taurus with 31 samples.

Results

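The core of the circadian clock was described in pig tissues through the open chromatin at 9 genes, CLOCK, ARNTL, PER1, PER2, CRY1, CRY2, NR1D1, NR1D2 and DBP. They were chosen by name as textbook members of the clock, and they are 9 of the 20394 protein-coding genes that lie on sequences with peaks. Each gene was taken with 10 kb on either side. ATAC-seq, in which a transposase tags DNA that is not wrapped in nucleosomes, had been run on nuclei of the brain tissues cerebellum, cerebral cortex and hypothalamus and of adipose, liver, lung, spleen and skeletal muscle. Every tissue was taken from the animals P348 and P350, which gave 16 peak lists. The pigs were Yorkshire littermates, both castrated males aged 6 months, and nuclei were frozen before use. Both animals were untreated, and the time of day at which they were killed is not given in the sources used here. The lists hold peaks only, and read depths were not used here.

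In mammals, CLOCK and ARNTL (also called BMAL1) form a dimer that binds E-boxes and turns on the period and cryptochrome genes. The PER and CRY proteins return to the nucleus and block that dimer, which closes a loop of about a day. NR1D1 and NR1D2 encode the nuclear receptors REV-ERB alpha and beta, which repress ARNTL through elements shared with the ROR receptors, and DBP is an output factor that binds D-boxes. The clock runs in nearly all tissues, and the hypothalamus houses the pacemaker that sets their phase.

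Several starts were taken from the reference because they carry a sequence of this loop inside a region that was open in all 8 tissues. Each window runs from 270 bases before to 30 bases after an annotated start (RefSeq transcripts on Sscrofa11.1) and is written 5′ to 3′ in the direction of transcription, with the matched motifs in capitals on either strand. The motifs searched were the E-box CACGTG, the related CACGTT (called the E-prime box below), the D-box as TTATGTAA or TTACGTAA, the cyclic AMP response element TGACGTCA and the REV-ERB/ROR response element. The windows are chr12:53376675-53376974 on the minus strand for PER1 and chr15:137837130-137837429 on the minus strand for PER2. Those of the cryptochromes are chr5:13275279-13275578 on the plus strand for CRY1 and chr2:16620351-16620650 on the minus strand for CRY2. NR1D1 is shown at chr12:22263279-22263578 on the plus strand and DBP at chr6:53993015-53993314 on the minus strand.
PER1, with an E-box: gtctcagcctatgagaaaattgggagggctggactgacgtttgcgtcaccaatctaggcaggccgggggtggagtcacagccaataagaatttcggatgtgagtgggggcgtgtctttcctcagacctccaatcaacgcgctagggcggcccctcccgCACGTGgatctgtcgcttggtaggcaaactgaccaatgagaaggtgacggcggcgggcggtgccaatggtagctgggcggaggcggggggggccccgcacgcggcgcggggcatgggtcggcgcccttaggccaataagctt
PER2, with a D-box: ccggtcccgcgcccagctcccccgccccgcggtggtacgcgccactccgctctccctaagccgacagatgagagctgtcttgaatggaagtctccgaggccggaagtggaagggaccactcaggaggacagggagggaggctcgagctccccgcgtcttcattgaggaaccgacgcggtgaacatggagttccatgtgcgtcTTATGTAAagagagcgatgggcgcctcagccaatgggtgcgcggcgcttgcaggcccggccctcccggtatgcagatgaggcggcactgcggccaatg
CRY1, with an E-prime box and an E-box: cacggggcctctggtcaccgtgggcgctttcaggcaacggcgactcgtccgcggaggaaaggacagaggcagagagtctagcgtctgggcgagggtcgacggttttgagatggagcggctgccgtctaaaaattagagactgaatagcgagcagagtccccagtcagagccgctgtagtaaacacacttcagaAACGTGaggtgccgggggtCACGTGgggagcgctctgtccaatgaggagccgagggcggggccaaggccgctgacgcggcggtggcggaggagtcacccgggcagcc
CRY2, with an E-prime box: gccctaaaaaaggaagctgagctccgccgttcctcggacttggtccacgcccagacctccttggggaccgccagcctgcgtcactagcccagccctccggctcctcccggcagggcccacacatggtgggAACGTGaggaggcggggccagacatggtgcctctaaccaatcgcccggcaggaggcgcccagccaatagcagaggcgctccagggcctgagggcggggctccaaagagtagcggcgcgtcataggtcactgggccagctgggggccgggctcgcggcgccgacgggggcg
NR1D1, with an E-prime box: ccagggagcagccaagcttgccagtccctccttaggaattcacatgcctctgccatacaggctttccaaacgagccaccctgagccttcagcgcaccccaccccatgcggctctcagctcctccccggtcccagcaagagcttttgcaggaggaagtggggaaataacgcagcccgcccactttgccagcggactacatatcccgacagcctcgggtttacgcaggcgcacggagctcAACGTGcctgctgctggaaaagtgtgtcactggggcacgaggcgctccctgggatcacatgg
DBP, with a REV-ERB/ROR response element: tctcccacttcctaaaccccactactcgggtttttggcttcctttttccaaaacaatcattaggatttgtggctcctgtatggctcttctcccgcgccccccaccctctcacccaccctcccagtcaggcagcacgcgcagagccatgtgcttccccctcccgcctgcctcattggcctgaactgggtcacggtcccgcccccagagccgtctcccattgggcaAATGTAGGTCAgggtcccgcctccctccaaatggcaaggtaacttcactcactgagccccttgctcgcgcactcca

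The printed windows hold only bases near a start, so a match in them lies close to it by design. In these windows the E-box of PER1 began at position -112 and that of CRY1 at -58, counted along the transcribed strand with the start at 1. The E-prime boxes began at -77 in CRY1, -140 in CRY2 and -32 in NR1D1, and the response element of DBP at -46. Other matches of these genes lay farther off, within 1000 bases on either side of the main start. Among them were E-boxes at -718 in CRY1 and -327 in NR1D1, and E-prime boxes at -448 and 963 in CRY2. Over the main starts of the 9 genes, 2 windows held an E-box, beside 7.6% of the windows of all coding genes. An E-prime box was in 3 of the 9, beside 5.31% of all windows, and the REV-ERB/ROR response element in 1, beside 0.319%. No D-box (0.956% of all windows) and no cyclic AMP response element (2.14%) was found in these 9 windows. The D-box of PER2, at position -68, belongs to a second annotated start, which is shown because the main start of PER2 lies outside the region open in all tissues. Within 1000 bases on either side of the main start, an E-box was found for 4 of the 9 genes (29.6% of all genes) and the REV-ERB/ROR response element for 5 (2.66%). An E-prime box was found there for 5 (32.1%), a D-box for 3 (6.81%) and a cyclic AMP response element for 1 (3.99%). A match describes letters and says nothing about binding.

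Some distal regions were open in both animals of a single tissue only, and 1 each of PER2, CRY1, NR1D2 and ARNTL is shown for that reason, as the 300 bases around the middle of each region on the plus strand. The windows are chr15:137797504-137797803 in an intron of PER2, chr5:13388698-13388997 in an intron of CRY1 that also lies in an intron of TMEM263, chr13:10750239-10750538 before NR1D2 and chr2:46032194-46032493 before ARNTL.
PER2, open in skeletal muscle: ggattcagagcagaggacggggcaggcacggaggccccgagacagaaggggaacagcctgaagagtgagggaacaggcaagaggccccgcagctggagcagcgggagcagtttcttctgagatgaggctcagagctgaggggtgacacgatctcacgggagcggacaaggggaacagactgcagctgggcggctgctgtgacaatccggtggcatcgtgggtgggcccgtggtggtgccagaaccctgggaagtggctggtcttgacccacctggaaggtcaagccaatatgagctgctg
CRY1, open in skeletal muscle, with a REV-ERB/ROR response element in capitals: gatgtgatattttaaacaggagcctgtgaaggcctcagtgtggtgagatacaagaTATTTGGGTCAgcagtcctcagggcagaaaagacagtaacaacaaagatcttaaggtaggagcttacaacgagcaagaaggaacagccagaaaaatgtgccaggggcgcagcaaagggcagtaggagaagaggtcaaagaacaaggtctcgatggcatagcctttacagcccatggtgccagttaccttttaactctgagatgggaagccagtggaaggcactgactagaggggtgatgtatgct
NR1D2, open in liver: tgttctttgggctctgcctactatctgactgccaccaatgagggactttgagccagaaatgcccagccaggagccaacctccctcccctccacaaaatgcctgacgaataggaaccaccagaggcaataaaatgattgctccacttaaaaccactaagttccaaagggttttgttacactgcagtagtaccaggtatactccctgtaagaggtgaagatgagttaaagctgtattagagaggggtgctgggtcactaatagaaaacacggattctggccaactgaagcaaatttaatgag
ARNTL, open in cerebral cortex: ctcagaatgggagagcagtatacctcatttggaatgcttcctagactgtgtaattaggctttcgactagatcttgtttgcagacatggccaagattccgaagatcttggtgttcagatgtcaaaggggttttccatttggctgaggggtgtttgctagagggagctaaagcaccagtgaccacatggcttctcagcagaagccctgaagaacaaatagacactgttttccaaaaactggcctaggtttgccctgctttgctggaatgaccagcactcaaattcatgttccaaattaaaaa

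Before the genes are described, the lists themselves need a word. They held 99960 to 217308 peaks over 64.1 to 155.6 Mb. The cerebellum lists were the longest, with 156 and 148 Mb, and 8.63% and 11.3% of their peak bases lay within 2 kb of a coding start (TSS). Skeletal muscle had 98.5 and 72.7 Mb with 20.2% and 24%. Levels are therefore given as the bases of a window covered by peaks per Mb of all peak bases of that library, a share that falls when a list is longer elsewhere. Of 16 marker genes of the tissues, 10 had their highest level in their own tissue, among them ACTN3 and CKM in skeletal muscle and ALB and APOH in liver, while ADIPOQ and PLIN1 ranked 4 of 8 in adipose. In bulk tissue, fewer cells with an open site and less opening per cell cannot be told apart.

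All 9 clock genes had a promoter peak in every library. Each gene had a peak within 2 kb of a TSS in 16 of 16 libraries, as had 55.5% of coding genes. Peaks were merged into regions across libraries, and a tissue counted as open at a region if the lists of P348 and P350 each held a peak there. Each of the 9 genes had 1 promoter region open in all 8 tissues. In all 9 that region covered a start within 2 kb of the 5′ end of the gene, and 49.6% of coding genes had a region of that kind. The strength of these peaks is the fold enrichment over local background that the authors' caller gave, an average over a broad peak.

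**Figure D1:**
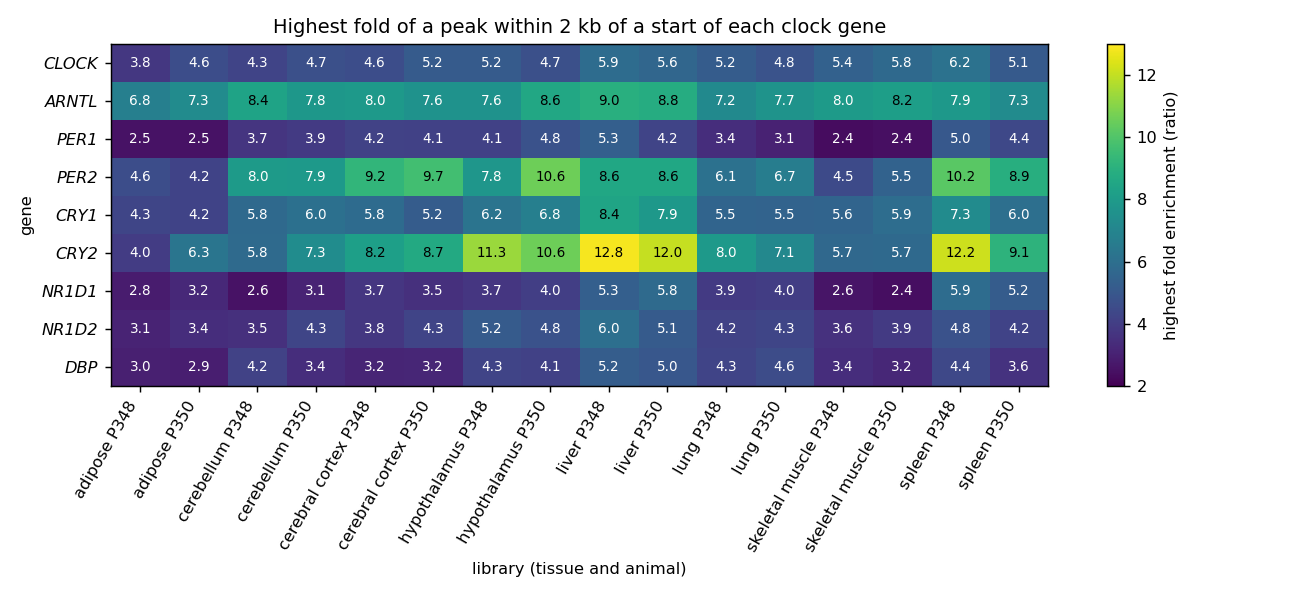
Highest fold enrichment of a peak within 2 kb of a start, for each clock gene (vertical axis) in each of the 16 pig libraries (horizontal axis, tissue and animal), with the value in each cell and in the colour scale. ARNTL had folds of 6.75 to 8.96 in all libraries, while CRY2 ran from 3.95 in an adipose library to 12.8 in a liver library.

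Of the activators, ARNTL had the steadier and stronger promoter peak. Its highest fold was 6.75 at the lowest, in adipose of P348, and 8.96 at the highest, in liver of P348, with a median of 7.84. It stood between the 78.2 and 96.9 percentile of all coding genes with a promoter peak in the same library. CLOCK, its partner, had folds of 3.79 to 6.17 with a median of 5.13, between the 43.5 and 73.1 percentile. The ARNTL value was above the CLOCK value in each of the 16 libraries.

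Among the repressors, PER2 and CRY2 had the strongest peaks and the widest span. CRY2 reached 12.8 and 12 in liver, 12.2 and 9.12 in spleen and 11.3 and 10.6 in hypothalamus, against 3.95 and 6.26 in adipose and 5.71 and 5.75 in skeletal muscle. PER2 reached 9.24 and 9.66 in cerebral cortex, 7.80 and 10.6 in hypothalamus and 10.2 and 8.91 in spleen, against 4.59 and 4.20 in adipose and 4.46 and 5.47 in skeletal muscle. CRY2 and PER2 thus had low folds in both adipose and skeletal muscle. By rank among coding genes with a promoter peak in the same library, the 2 tissues differed. CRY2 stood at the 64.35 and 92.18 percentile in adipose and 58.36 and 49.5 in muscle, with a median of 90.09 over the 16 libraries. PER2 stood at the 75.62 and 65.55 percentile in adipose and 38.72 and 45.35 in muscle, with a median of 84.74. PER1 had lower folds, from 2.37 and 2.43 in skeletal muscle to 5.32 and 4.25 in liver, and CRY1 ran from 4.22 in adipose of P350 to 8.41 in liver of P348.

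The receptors NR1D1 and NR1D2 and the output factor DBP had modest promoter peaks in all tissues. NR1D1 was between 2.43 and 5.91, NR1D2 between 3.08 and 6.01 and DBP between 2.93 and 5.25. In both muscle libraries the promoter fold was below the median of the 14 other libraries for 7 of the 9 genes, all but CLOCK and ARNTL, beside 22.1% of the coding genes with a promoter peak in all libraries. For PER1 it was below all of the 14, beside 1.23% of these genes. The fold of PER1 was at the 4.15 and 2.50 percentile of all genes with a promoter peak in the muscle libraries, and that of NR1D1 at the 8.67 and 2.48 percentile.

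Width went the other way at PER1. Its widest promoter peak measured 2160 and 2169 bp in skeletal muscle and 526 to 1631 bp in the 14 other libraries, so the groups did not overlap, as for 12.1% of the coding genes with a promoter peak in all libraries. NR1D1 had 3470 and 1612 bp in muscle against 492 to 2845 bp elsewhere. NR1D2 had 2087 and 1750 bp against 1522 to 1753 bp. The listed fold is a mean along the peak. For PER1 and NR1D1 in muscle the widest peak was not the one with the highest fold, while for NR1D2 it was. In muscle the widest peaks had folds of 2.35 and 2.39 for PER1 and 2.06 and 2.29 for NR1D1. The highest folds were 2.37 and 2.43 for PER1 and 2.64 and 2.43 for NR1D1. Whether width bears on the fold was not tested.

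The 9 genes also had promoter regions that were not shared by all tissues. They had 21 promoter regions in all, 17 of them open in at least 1 tissue, of which 9 were open in all 8 tissues and 6 in 1 or 2. Over all coding genes, 44.9% of the open promoter regions were open in all tissues and 25.1% in 1 or 2. The regions that were not shared lay at internal or second starts, or up to 2 kb from a start. A region at chr13:10760786-10762133, at the second annotated start of NR1D2, was open in skeletal muscle. One before CRY2 at chr2:16621647-16622044 was open in skeletal muscle too, and one before NR1D1 at chr12:22261197-22262413 in lung and skeletal muscle. The 3 other tissue-limited ones were chr8:54863402-54864500 in CLOCK, open in adipose and cerebral cortex, chr2:45940958-45941400 in ARNTL, open in cerebral cortex, and chr15:137826262-137827644 in PER2, open in lung. ARNTL had an internal start region at chr2:45947093-45952059 that was open in all tissues but hypothalamus, and PER2 had one at chr15:137833110-137835026 in adipose, lung and skeletal muscle.

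**Figure D2:**
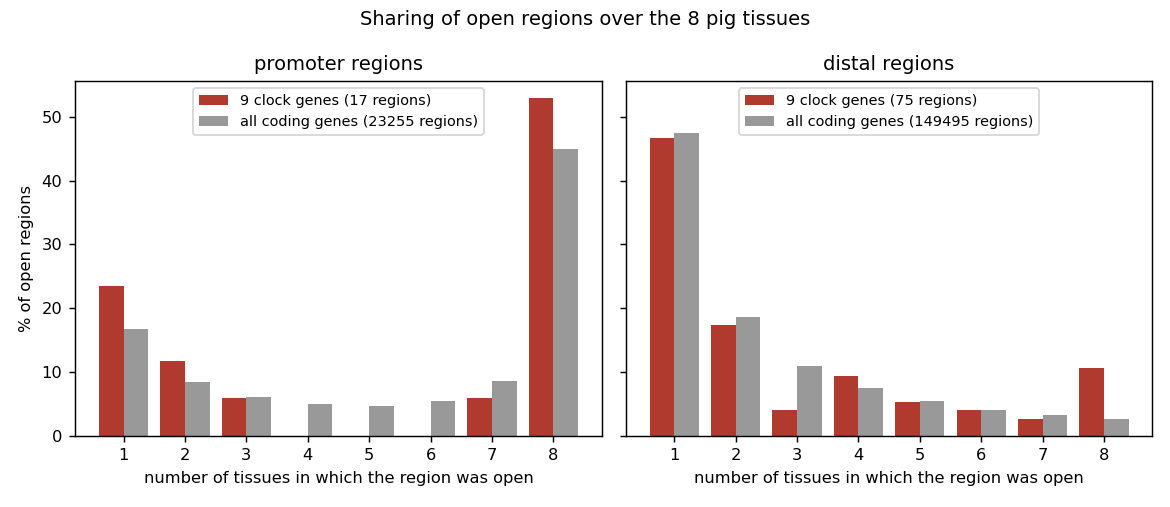
Number of tissues in which a region was open in both animals (horizontal axis) against the percentage of open regions (vertical axis), for promoter regions on the left and distal regions on the right. Red bars are the 9 clock genes and grey bars all coding genes. Promoter regions piled up at 8 tissues and distal regions at 1 tissue in both sets.

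Distal regions, more than 2 kb from any coding TSS, showed the opposite distribution. Of 132 distal regions in the 9 windows, 75 had at least 1 open tissue. Among them 35 were open in 1 tissue and 48 (64.0%) in 1 or 2, beside 66.1% over all coding genes. Only 8 (10.7%) were open in all 8 tissues, beside 2.68% of the distal regions of all coding genes. Thus 52.9% of the open promoter regions and 10.7% of the open distal regions were shared by all tissues.

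The shared distal regions belonged to 7 of the 9 genes. CRY2 had 2 of them, and CLOCK, ARNTL, PER1, CRY1, NR1D1 and DBP had 1 each, while PER2 and NR1D2 had none. The strongest were chr2:16596492-16602129 in CRY2, with a highest fold of 10.9, and chr5:13366524-13367845 in CRY1, with 10.6, both covering exons of the gene. The CRY1 region kept a fold of 4.43 or more in all 16 libraries. ARNTL had an intronic region at chr2:45980399-45984282 with folds of 6.67 and 7.64 in skeletal muscle and 2.37 to 4.39 in the 14 other libraries. PER1 had low muscle values at chr12:53360661-53364665, over exons, with 2.29 and 2.00 in muscle and 2.29 to 7.01 in the 14 others, the lowest of them in adipose of P350 and the highest in liver of P348. The region of CLOCK at chr8:54784626-54786235 lies in an intron of TMEM165, and that of DBP at chr6:53985265-53988167 covers exons of both DBP and SPHK2, so a peak there cannot be given to either gene. The middle 300 bases of the 75 distal regions held an E-box in 3 regions (4%), beside 5.83% of all distal regions, and an E-prime box in 5 (6.67%), beside 5.5%.

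Skeletal muscle held the largest part of the distal regions open in 1 tissue. Of the 35, 17 (48.6%) were open in skeletal muscle, 6 in cerebral cortex, 5 in liver, 3 in adipose, and 2 each in lung and spleen. None was open in cerebellum or hypothalamus. Over all coding genes, 21.5% of such regions were open in skeletal muscle, 22.6% in cerebellum, 17.3% in cerebral cortex and 2.06% in hypothalamus.

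The regions named here and in the next paragraph were picked as the strongest tissue-limited distal region of each gene by the weaker animal. A gap to the tissues that were not open is part of that choice. The folds therefore describe these regions and do not measure how far the tissues were apart. In the PER2 intron at chr15:137796992-137798315, both muscle libraries had folds of 7.15 and 8.48, while the 4 other libraries with a peak had 2.31 to 2.61 and 10 had none. The region in the CLOCK gene at chr8:54804013-54804392, over an exon, had folds of 6.79 and 5.82 in muscle and 2.93 in a lung library. The CRY1 region shown above (chr5:13388639-13389056) had 6.30 and 5.43 in muscle and 4.89 in liver of P348, with no peak in liver of P350. The region before NR1D2 at chr13:10750040-10750737 had 6.97 and 3.99 in liver and 2.78 in cerebral cortex of P350.

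Cerebral cortex had 6 distal regions of its own, 3 at ARNTL and 3 in the CLOCK window. The region before ARNTL at chr2:46032177-46032511 had folds of 4.99 and 6.53 in cerebral cortex and 4.13 in hypothalamus of P350, with no peak in the 13 other libraries. A region at chr2:16579982-16580404, in the CRY2 window but in an intron of the neighbour MAPK8IP1, was open in cerebral cortex (2.51 and 3.05) and hypothalamus (3.70 and 2.94). NR1D1 had a region over exons shared with the overlapping gene THRA, chr12:22270265-22271300, that was open in cerebral cortex (2.49 and 2.53) and skeletal muscle (4.14 and 3.9). The tissue-limited region of PER1 in adipose, chr12:53355515-53355966, was weak, with folds of 2.40 and 3.15 and a muscle library at 2.40. DBP had no tissue-limited distal region.

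**Figure D3:**
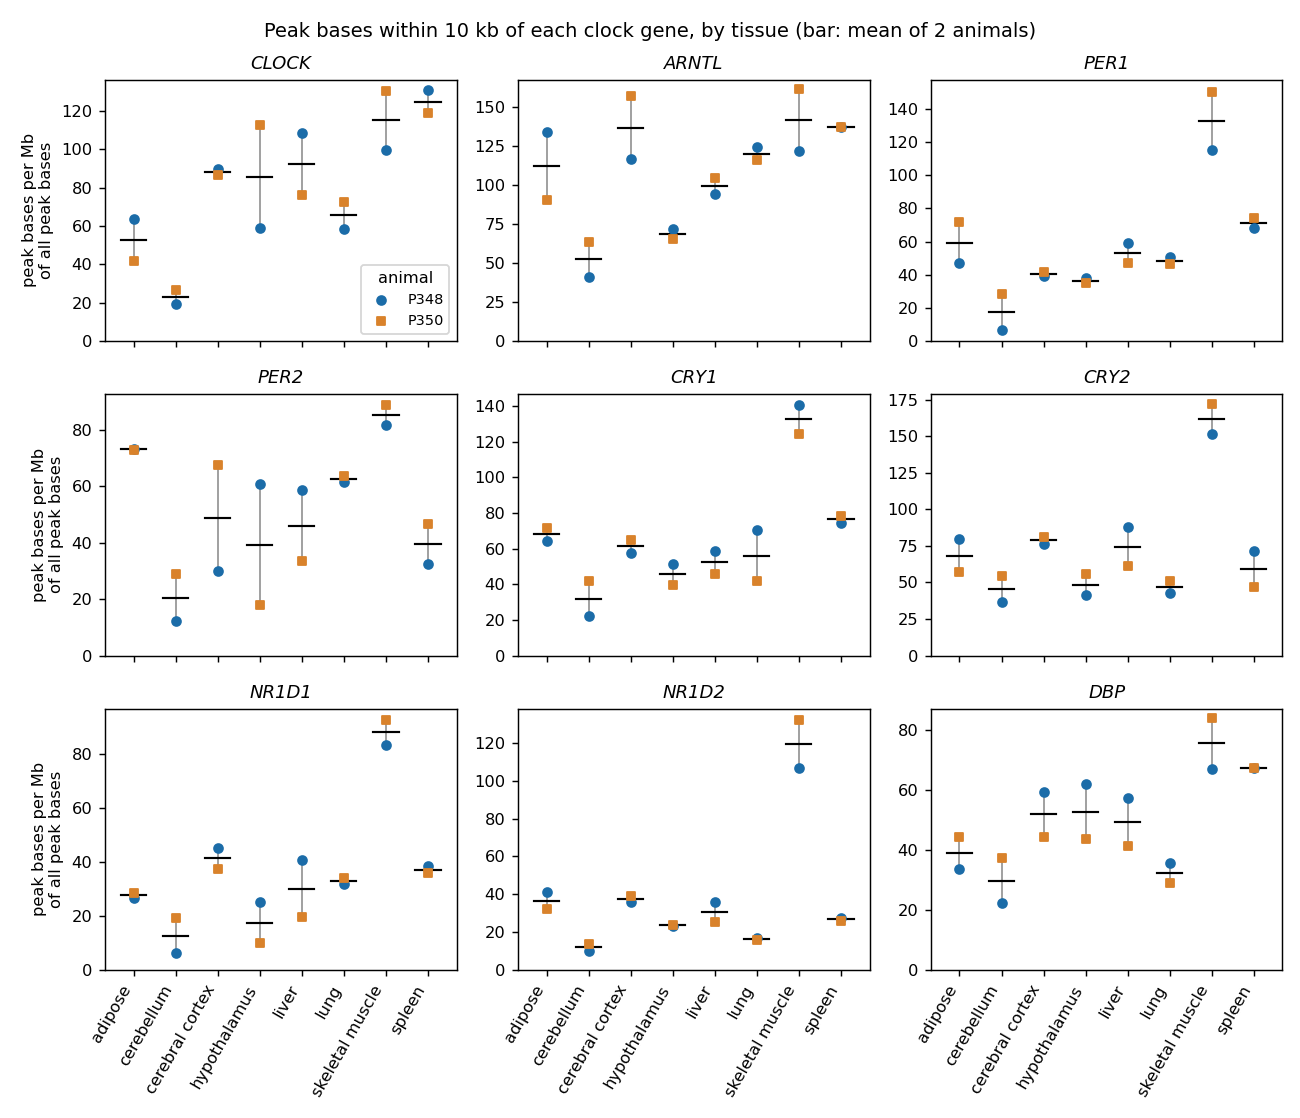
Peak bases within 10 kb of each of the 9 clock genes per Mb of all peak bases of the library (vertical axis, starting at 0) in the 8 tissues (horizontal axis), with a point for each animal and a bar at their mean. Skeletal muscle is highest for 8 of the 9 genes, with CLOCK highest in spleen, and cerebellum is lowest for all 9. The same count was not made over all genes.

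Summed over the whole gene window, the level was highest in skeletal muscle for 8 of the 9 genes and in spleen for CLOCK, and it was lowest in cerebellum for all 9. How many of all genes had these extremes was not counted. Over all genes, the median log2 difference to the 7 other tissues was 0.34 for skeletal muscle and -0.83 for cerebellum, so both directions were general in these lists. A difference between the 8 tissues was called for 9 of 9 genes at an adjusted p under 0.05 (limma over all genes on log2 of the level plus 5), where 72.9% of all genes were called. In promoters alone it was called for 4 of 9 (PER1, NR1D2, CRY2 and DBP), beside 57.5% of all genes, and in distal parts for 7 of 9 (all but PER2 and DBP), beside 58.8%. The range between the highest and the lowest tissue mean had a median over the 9 genes of 1.19 on the log2 scale in promoters and 2.54 in distal parts, beside 1.18 and 1.93 over all genes.

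Within the order of the tissues, few neighbours were apart. For ARNTL, 2 of the 7 neighbouring pairs had values that did not overlap between animals, liver over hypothalamus and hypothalamus over cerebellum. For PER1 and NR1D2 it was 4 of 7, for NR1D1 3, for PER2 and CRY1 2, and for CLOCK, CRY2 and DBP 1. The same count was not made over all genes, and with 2 values per tissue such a gap carries little weight. Skeletal muscle stood apart from the next tissue in PER1, PER2, CRY1, CRY2, NR1D1 and NR1D2. The ratio of the highest to the lowest tissue mean was 9.96 for NR1D2, 7.63 for PER1, 6.91 for NR1D1, 5.45 for CLOCK, 4.17 for PER2, 4.15 for CRY1, 3.53 for CRY2, 2.70 for ARNTL and 2.53 for DBP.

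Skeletal muscle was then set against the 7 other tissues, a comparison chosen after the levels had been seen, so its calls describe the same data. In whole windows 8 of the 9 genes were higher, all but ARNTL, beside 30.5% of all genes. The median difference was 1.23 on the log2 scale for the 9 genes and 0.34 for all genes. Under a scaling to the peak bases near TSSs, the median of all genes fell to 0.04 and 15.9% of all genes were called higher. Of the 9 genes, 5 stayed called (PER1, CRY1, CRY2, NR1D1 and NR1D2), with no change of direction among the 8. The share of lower genes among all calls then rose from 32.1% to 52.0%.

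NR1D2 showed the largest difference. Its window had 106.6 and 132 peak bases per Mb in skeletal muscle, and 10.2 at the lowest, 25.7 at the median and 41.2 at the highest in the 14 other libraries. The difference on the log2 scale was 2.06 ± 0.20 (SE, adjusted p = 5.9e-06). In its distal part the muscle libraries had 71.7 and 99.0 per Mb in 9 and 8 peaks, against 0 to 27.5 per Mb in 0 to 6 peaks elsewhere, a difference of 3.0 ± 0.39 (adjusted p = 4.94e-05). In its promoter it was 0.81 ± 0.15 (adjusted p = 0.00423).

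**Figure D4:**
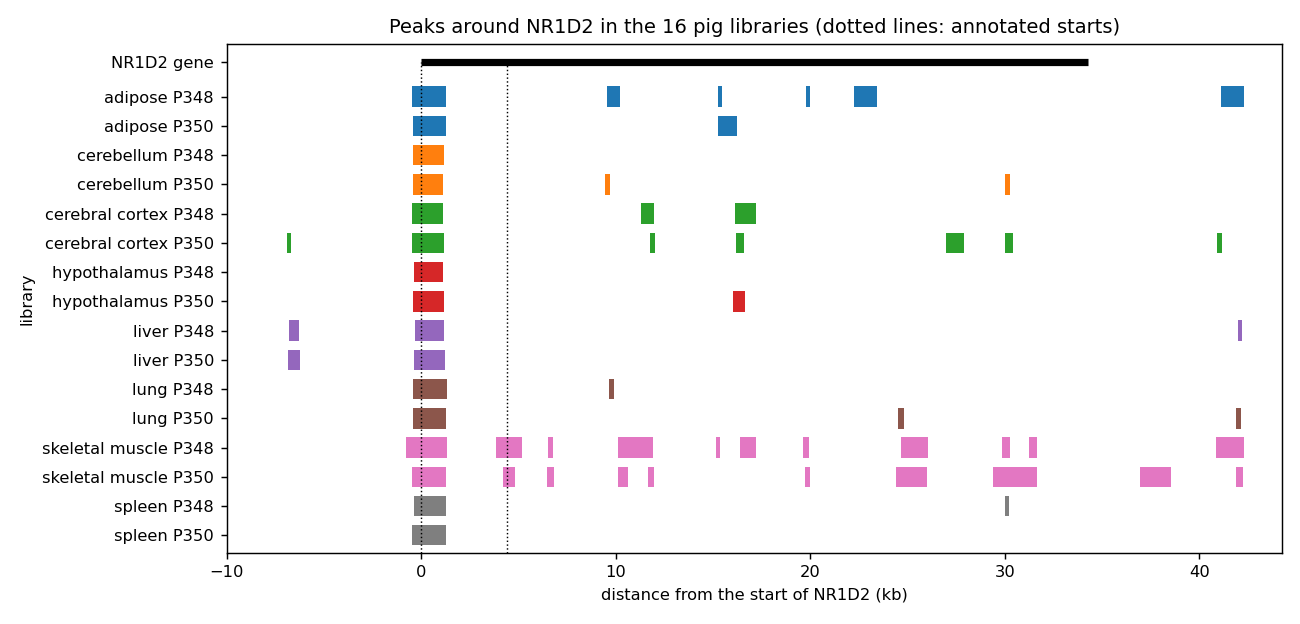
Peaks in the window of NR1D2 (bars) in the 16 pig libraries (vertical axis) by distance from the start of the gene in kb (horizontal axis), with the gene as a black line and its annotated starts as dotted lines. All 16 libraries have a peak at the start, and the 2 muscle libraries have 9 and 8 distal peaks, against 0 to 6 in each of the 14 others.

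Along NR1D2, 5 of the 8 open distal regions were open in skeletal muscle alone. Their middles lay 6627, 19791, 25211 and 30524 bp into the gene and at 41581 bp, past its end. Other libraries held peaks in 4 of these regions without both animals of a tissue agreeing, and the first was found in the muscle libraries only. Cerebellum had no open distal region at NR1D2, and 3 of the 14 other libraries had no distal peak there at all. The receptor gene NR1D1 had 83.4 and 92.4 peak bases per Mb in muscle against 6.19 to 45.1 elsewhere (median 30.2), a difference of 1.58 ± 0.31 (adjusted p = 0.00116). In each muscle library 6 peaks reached into its distal part, against 0 to 4 elsewhere. Its whole window held 7 and 8 peaks in muscle and its promoter 3 and 4, so some peaks were counted in both parts. Of its open distal regions, 3 were open in skeletal muscle.

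Among the repressors, PER1 had 115.5 and 150.4 peak bases per Mb in muscle and 6.64 to 74.0 in the 14 others (median 46.8), a difference of 1.52 ± 0.29 (adjusted p = 0.00106). CRY1 had 140.6 and 124.2 against 22 to 78.4 (median 58.3), a difference of 1.23 ± 0.24 (adjusted p = 0.00104). CRY2 had 151.4 and 172.1 against 36.9 to 87.7 (median 56.5), a difference of 1.39 ± 0.23 (adjusted p = 0.000323). PER2 had 81.7 and 88.8 against 12.2 to 73.3 (median 52.7), the smallest gap of the 4, with a difference of 0.93 ± 0.36 (adjusted p = 0.0497). In these 4 genes and the 2 receptors both muscle libraries were above all 14 others, and 18.1% of all genes had that pattern. In promoters it held for PER1, NR1D1 and NR1D2, 3 of the 9 (7.16% of all genes), and in distal parts for 5 of the 9, these and both cryptochromes (17.1%).

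The activators and DBP overlapped between groups. CLOCK had 99.8 and 130.5 peak bases per Mb in muscle and up to 130.6 elsewhere, in spleen of P348, with a difference of 0.71 ± 0.24 (adjusted p = 0.0298). DBP had 66.9 and 83.9 against 22.3 to 67.4 (0.70 ± 0.23, adjusted p = 0.0232). ARNTL had 121.6 and 161.5 against 41.0 to 156.9, and its difference of 0.49 ± 0.21 was not called (adjusted p = 0.0701).

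**Figure D5:**
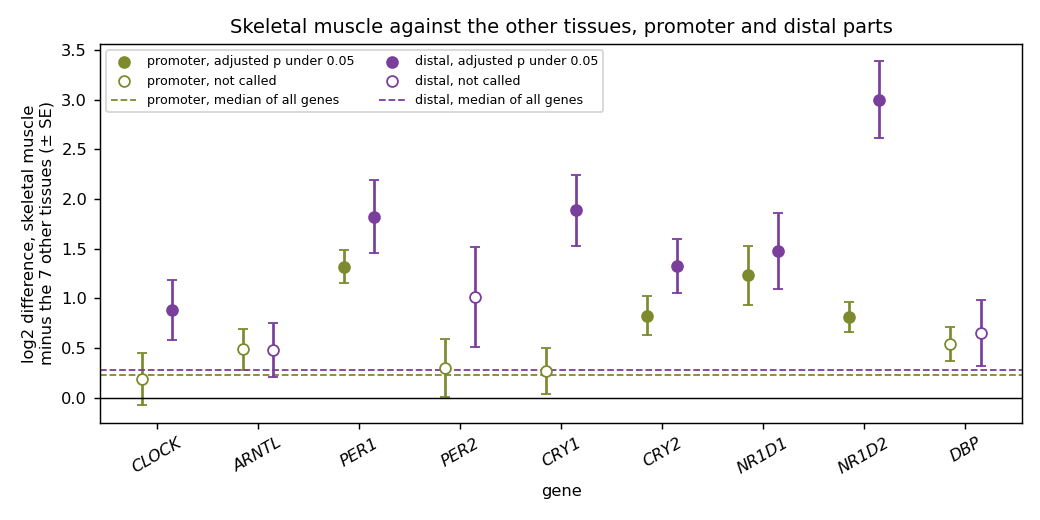
Difference between skeletal muscle and the 7 other tissues on the log2 scale (vertical axis, error bars 1 SE) in the promoter and distal parts of each clock gene (horizontal axis). Filled points had an adjusted p under 0.05, and dashed lines mark the median of all genes, 0.22 for promoters and 0.27 for distal parts. The distal value of NR1D2 is 3.0 and its promoter value 0.81.

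Split by part, the muscle difference was called in the promoters of 4 genes (PER1, CRY2, NR1D1 and NR1D2), beside 12.3% of all genes, and in the distal parts of 6 (the same 4, CRY1 and CLOCK), beside 25.7%. The distal difference had a median of 1.33 on the log2 scale over the 9 genes and the promoter difference 0.54. CRY1 showed the split most plainly after NR1D2, since its distal part had 104.7 and 76.4 peak bases per Mb in muscle and 5.18 to 39.2 elsewhere (1.89 ± 0.36, adjusted p = 0.00104) and its promoter 15.2 and 20.1 against 4.31 to 20.9 (0.27 ± 0.23, adjusted p = 0.414). PER1 was higher in both parts, by 1.32 ± 0.17 in promoters (adjusted p = 0.000439) and 1.82 ± 0.37 in distal parts (adjusted p = 0.00148). Without the muscle library of P350, the promoter call was left in 1 gene and the distal call in 3, and without either muscle library the whole-window call in 5. Whether the promoter and distal differences of a gene differ from each other was not tested.

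The 3 brain tissues were set against the 5 others because the study had combined them in its motif analysis. Hypothalamus, which houses the pacemaker, was also tested alone, as given below. In whole windows, 8 of the 9 genes were lower in brain and DBP was not called, where 46.9% of all genes were lower and the median over all genes was -0.43. PER1 had the largest difference, -1.12 ± 0.20 (adjusted p = 0.00071). Its 6 brain libraries ran from 6.64 to 41.8 peak bases per Mb and the 10 others from 46.4 to 150.4, without overlap, a pattern that 1.31% of all genes had and no other of the 9. PER2 differed by -0.81 ± 0.25 (adjusted p = 0.0135), NR1D1 by -0.79 ± 0.21 (adjusted p = 0.00653) and CRY1 by -0.65 ± 0.16 (adjusted p = 0.00442). The smallest called difference was that of CRY2, -0.39 ± 0.15 (adjusted p = 0.0448).

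Cerebellum carried much of this. Both of its libraries were below all 14 others for 4 of the 9 genes in whole windows (CLOCK, ARNTL, PER1 and NR1D2), beside 34.2% of all genes, for 7 in promoters, beside 37% of all genes, and for CLOCK in distal parts, beside 12.5%. With cerebellum left out of the brain tissues, an alternative added after the data had been seen, PER1 alone was called in whole windows (-0.74 ± 0.23, adjusted p = 0.0417), where 10.3% of all genes were lower. The 7 other genes that had been called differed by -0.52 ± 0.28 (PER2), -0.49 ± 0.24 (NR1D1), -0.42 ± 0.18 (CRY1), -0.30 ± 0.17 (ARNTL), -0.25 ± 0.16 (NR1D2), -0.25 ± 0.18 (CRY2) and 0.00 ± 0.19 (CLOCK). In promoters 3 genes were lower in brain (PER1, PER2 and NR1D2; 27.8% of all genes) and in distal parts 5 (CLOCK, ARNTL, PER1, CRY1 and NR1D1; 32.2%), and without cerebellum PER1 was left in promoters (3.35% of all genes) and CRY1 in distal parts (11.4%). When levels were scaled to the peak bases near TSSs, the median of all genes in whole windows rose by 0.30 to -0.13. The share of lower genes among all calls went from 82.7% to 56.3%. NR1D1 and PER1 were left in whole windows, where 19% of all genes were lower. No called difference of the 9 genes changed sign under any scaling.

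Hypothalamus alone gave few calls at these genes. Against the 7 other tissues, 0 of 9 were called in whole windows by limma, beside 3.81% of all genes, and 3 of 9 had an unadjusted p under 0.05 (NR1D1, CRY2 and ARNTL), all with lower values in hypothalamus, beside 19.7% of all genes. The differences ran from -0.86 to 0.18 with a median of -0.44. In distal parts CRY1 was lower in hypothalamus by the same test (-1.28 ± 0.36, adjusted p = 0.0478), beside 6.46% of all genes called. In liver 0 of 9 were called, beside 0.912% of all genes, and 0 of 9 had an unadjusted p under 0.05, beside 15.4%. The differences there ran from -0.22 to 0.35, with standard errors of 0.20 to 0.36. A missed threshold does not show that liver was alike.

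Other genes of the clock loops were counted beside the 9. Of a list of 18, 16 were found by symbol in the annotation. Of these, 11 were lower in brain in whole windows (46.9% of all genes), 2 higher (9.84%) and 3 not called. PER3, the third period gene, had the largest difference, -1.54 ± 0.26 (adjusted p = 0.000509), followed by FBXL21 (-0.93 ± 0.31, adjusted p = 0.0217) and the kinase gene CSNK1D (-0.92 ± 0.18, adjusted p = 0.00123). HLF, NFIL3, NOCT, BHLHE40, TEF, RORA and CIART were lower as well, from -0.70 for HLF to -0.39 for CIART. RORB, a ROR receptor gene, was higher in brain by 1.23 ± 0.15 (adjusted p = 7.27e-05) and ARNTL2, a paralogue of ARNTL, by 0.83 ± 0.16 (adjusted p = 0.00109). With cerebellum left out of the brain tissues, 1 of the 16 was lower (10.3% of all genes), 3 were higher (5.0%) and 12 were not called. In skeletal muscle 8 of the 16 were higher (30.5% of all genes) and 1 lower (14.4%). The median difference over the 16 was 0.49, beside 1.23 for the 9 genes and 0.34 for all genes.

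The 9 genes resembled each other to different degrees across the 16 libraries. The correlation of their log2 levels in whole windows was highest for CRY2 and NR1D2 (Pearson's r = 0.941), followed by PER1 and CRY1 (0.927) and CRY1 and NR1D1 (0.903), and lowest for CLOCK and PER2 (0.351). These points share list length and animals, so the values describe the tables. Over all genes, those most like the members were DIXDC1 for CLOCK (0.957), CALHM3 for ARNTL (0.955), SH2D3A for PER1 (0.976), PLD6 for PER2 (0.917), TGFBR1 for CRY1 (0.960), NR1D2 for CRY2, RASA3 for NR1D1 (0.952), GUF1 for NR1D2 (0.972) and PSMC4 for DBP (0.951), all over 16 libraries. The highest tissue of the like gene was spleen for CALHM3 and PSMC4 and skeletal muscle for the others.

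Several windows hold other genes, which bears on what a peak in them belongs to. NR1D1 overlaps THRA at its end, the annotated CRY1 gene overlaps MTERF2 and TMEM263, and the CLOCK gene overlaps TMEM165. DBP has the starts of RPL18, SPHK2 and CA11 in its window. Of the 10 regions at starts of such neighbours, 6 were open in all 8 tissues, and they entered the whole window levels but neither the promoter nor the distal part.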

How the data were processed

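ATAC-seq peak lists of 16 pig libraries (8 tissues, animals P348 and P350) were analysed. The authors trimmed reads with Trim Galore 0.4.5 and used BWA 0.7.17, SAMtools 1.10 and Picard 2.18.17, per the submitters' processing notes, and called broad peaks with MACS2 in each library. The deposited lists give, for each peak, the fold enrichment, the −log10 p-value, the −log10 q-value and a score that is 10 times the latter. They hold q-values above the stated limit of 0.05 in 1.54% to 16.27% of peaks, and all were kept. Whether reads were shifted for the transposase is not given in the sources used here.

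Genes came from the RefSeq annotation of Sscrofa11.1, and 270 of 270 sequence names in the lists matched it. Peak bases were summed over each gene with 10 kb either side, within 2 kb of its own coding TSSs (promoter) and outside 2 kb of any coding TSS (distal), per Mb of all peak bases. Genes with a mean of at least 1 were fitted with limma 3.58.1 (R 4.3.3) on log2 of the value plus 5, with p-values adjusted by Benjamini-Hochberg over all genes. A fold change on this scale understates changes of low genes. Peaks were merged into regions when they shared 1 base. The scripts were tested on simulated data. The number of libraries, 2 per tissue, limits precision. Read depth was not used, which is a separate limit. Named regions were, for each gene, the strongest tissue-limited distal region by the weaker animal and the most widely open one. Like genes had the highest Pearson's r with a clock gene over all libraries. The genes, lists and tests were chosen with earlier results of these data known. The same animal gave all tissues, so the animal pairs the samples. Deviations of libraries of the same animal correlated with a median r of 0.0048 over 28 pairs of tissues. Animals are 2, so p-values measure the spread between these libraries. Alternatives covered the scaling, the windows, the q-value limit, peak counts, the sharing rule, the animal as a block and leaving out libraries. The muscle comparison and the brain comparison without cerebellum were added after the data had been seen. Values of 1 gene of the list of other clock genes are not reported here.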

Additional observations from a re-analysis of the deposited data

How the results depend on the processing

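Counts below are of the 9 clock genes unless regions are named. The share of all genes called lower in brain or higher in muscle fell under other scalings as well. Such shares are given beside the brain and muscle counts under the scalings and not beside the other counts. Without that share, a fall in a count cannot be told from a general fall in calls. Scaled to peak bases near TSSs, a tissue difference was called for 5 genes in whole windows, 2 in promoters and 4 in distal parts. Brain against other tissues was called for 2, 1 and 2, and muscle for 5 in whole windows. Of all genes, 19%, 7.53% and 17.6% were then lower in brain, from 46.9%, 27.8% and 32.2% in the main setting. In muscle 15.9% of all genes were higher in whole windows, from 30.5%. Without scaling, the counts were 4 for the tissue difference in distal parts, 4, 1 and 2 for brain, and 1 for hypothalamus. The shares of all genes lower in brain were then 26.2%, 14.1% and 20.7%. With lists of equal length they were 4 and 1 for brain in whole windows and promoters and 5 for muscle in whole windows. With q-values under 0.01, muscle was called for 4 genes in whole windows and 1 in promoters. Numbers of peaks gave 7 for the tissue difference in promoters and 1 for hypothalamus, windows of 50 kb 1 for hypothalamus, and a TSS distance of 500 bp 2 for muscle in promoters. Without cerebellum, brain gave 1, 1 and 1. When peaks had to cover 50% of a region, 4 promoter and 0 distal regions were open in all tissues. Distal regions open in all tissues numbered 4 with q-values under 0.01 and 4 with equal length, and 76 were tissue-limited with either animal. The causes were not tested.

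Leaving out 1 library each gave 7 to 9, 2 to 5 and 5 to 7 genes for the tissue difference in whole windows, promoters and distal parts, 6 to 8, 1 to 3 and 2 to 7 for brain, 0 to 1 for hypothalamus, 0 to 0 for liver, and 5 to 9, 1 to 5 and 3 to 7 for muscle. Without cerebellum of P348 or lung of P350 the tissue difference in promoters fell to 2, and without cerebellum of P348 or hypothalamus of P350 brain in promoters fell to 1. Brain in distal parts fell to 2 without cerebellum of P348 and 3 without cerebral cortex of P348. With 1 animal alone, 9 to 10 and 6 to 6 promoter regions were shared and tissue-limited, and 8 to 10 and 59 to 77 distal regions. With the replicate block, the pairing by animal, the counts were 8, 3 and 7 for the tissue difference, 7, 2 and 5 for brain, 0 for hypothalamus and liver, and 7, 4 and 6 for muscle. No called difference of a single gene changed direction in any alternative. Fold and width were not separated, and read depths were not used here.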
